A study of Homo sapiens with 12 samples.

Results

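Adding everolimus to 786-O cells that also received SGI-1027 was examined by comparing the 3 combination libraries with the 3 libraries of cells given SGI-1027 alone. These 6 of the 12 RNA sequencing libraries were taken by their group labels, and 12841 of the 17085 genes listed passed a filter on low counts, whereas the other 4244 carry no test. 786-O is a human clear cell renal carcinoma line. Both groups were exposed to 1.5 µM SGI-1027 for 24 h, and the combination group also to 5 µM everolimus. The remaining 6 libraries, 3 of cells in DMSO vehicle and 3 of cells given everolimus without SGI-1027, show the response to everolimus alone and share the estimate of the spread in 1 fit of all 12 libraries. For the everolimus-only group the sample annotation gives 5 µM and the treatment protocol 10 µM, while the methods of the study name 5 µM, and if 10 µM was used, in any comparison of the combination with everolimus alone a difference in dose and the presence of SGI-1027 cannot be told apart. The model is limited to 1 cell line, 1 dose pair and 1 time point. Nothing in the labels ties the replicates to separate cultures, and p-values then measure only the spread between these libraries, which may be technical.

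mTOR complex 1 is a kinase at the lysosomal surface that promotes ribosome production, lipid and nucleotide synthesis and growth when nutrients and growth factors are present, and it holds the MiT/TFE transcription factors of lysosomal genes in the cytoplasm. Everolimus, bound to FKBP12, inhibits this complex, which relieves feedback on receptor tyrosine kinases and insulin signalling and is used against renal carcinoma. SGI-1027 is a quinoline-based, non-nucleoside inhibitor of DNA methyltransferases, and loss of DNA methylation is known to raise interferon-stimulated genes in many tumour lines.

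The 12 libraries held 37046231 to 41516976 counts each. SGI-1027 replicate 3 stood apart from the other libraries of its group: 145 of 11465 genes lay more than 0.5 log2 units from the mean of the other two libraries, against 62 and 63 genes for SGI-1027 replicates 2 and 1, and the counts of each gene list are also given without it. DMSO replicate 1 stood apart likewise, with 138 such genes, and without it 1390 genes were higher and 1450 lower in the combination than with SGI-1027. On the first principal component of the 6 libraries, with 45.4% of the variance, all 3 combination libraries lay on one side and all 3 SGI-1027 libraries on the other. The second, with 16.5%, was set by SGI-1027 replicate 3. Of the renal carcinoma markers, PAX8, PAX2, EPAS1, VIM, KRT8 and KRT18 had at least 584 counts in each of the 6 libraries, whereas CA9 had 2 to 10. The 5 immune markers summed to 7 to 18 counts in the SGI-1027 libraries and 2 to 7 in the combination libraries, and CD3E was at 0 in all 6. The 4 endothelial markers summed to 7 to 18 and 5 to 9, and the 4 markers of mature proximal tubule to 64 to 80 and 55 to 67.

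With SGI-1027 present, everolimus changed many genes by small amounts. At an adjusted p under 0.05, 1207 genes rose (9.4% of those tested) and 1311 fell (10.2%), which is 19.6% in either direction, with median log2 fold changes of 0.26 and -0.28 among the called genes, and only 38 rose and 125 fell by at least 1 log2 unit. By the cut-off that the study used (a raw p below 0.05 with a change of 1 log2 unit or more in either direction), 55 genes were higher (0.428%) and 156 lower (1.21%). Without SGI-1027 replicate 3, 1297 rose and 1246 fell, and 62 and 148 passed the cut-off of the study. With only these 2 groups in the fit, 1071 rose and 1035 fell. On the deposited FPKM values, as log2(FPKM + 1) in limma, 1464 genes were higher and 1042 lower, so that the share of calls that were higher was 58.4% there against 47.9% from the counts. The 3 libraries of one group did not overlap those of the other for 2195 genes that were higher in the combination (17.1%) and 2248 that were lower (17.5%). RNA was measured in bulk, so that fewer cells of a kind and less RNA per cell cannot be told apart.

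Everolimus without SGI-1027, a contrast of the other 6 libraries in the same fit, gave more calls: 3488 rose (27.2%) and 3749 fell (29.2%, and 56.4% in either direction), or 4480 and 2901 under upper-quartile scaling and 3706 and 3934 without SGI-1027 replicate 3, which enters through the shared spread. By the cut-off of the study 499 were higher (3.89%) and 116 lower (0.903%). Over all tested genes the median absolute log2 fold change was 0.108 with SGI-1027 present and 0.249 without it. Of the 1207 genes that rose with SGI-1027, 481 (39.9%) also rose without it, which is 13.8% of the genes that rose there, and 336 (27.8%) fell there. Of the 1311 that fell, 499 (38.1%, and 13.3% of those that fell without SGI-1027) fell in both and 361 (27.5%) rose without SGI-1027. Across the 12841 genes, which are not independent of each other, the 2 fold changes had a Pearson correlation of 0.09 and a Spearman correlation of 0.07. The difference between the effects of everolimus, with minus without SGI-1027, was itself called above 0 for 3028 genes (23.6%) and below 0 for 2833 (22.1%), 45.6% in all, and 1626 of the 2518 genes called with SGI-1027 present were among them. Upper-quartile scaling gave 2335 and 3578, so that the share of called differences above 0 was 51.7% under the main scaling and 39.5% under this one. SGI-1027 alone, against DMSO, raised 4106 and lowered 3934 of the 12841 genes. Counts of list members below stand against the shares or counts of their own contrast given here.

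**Figure D1:**
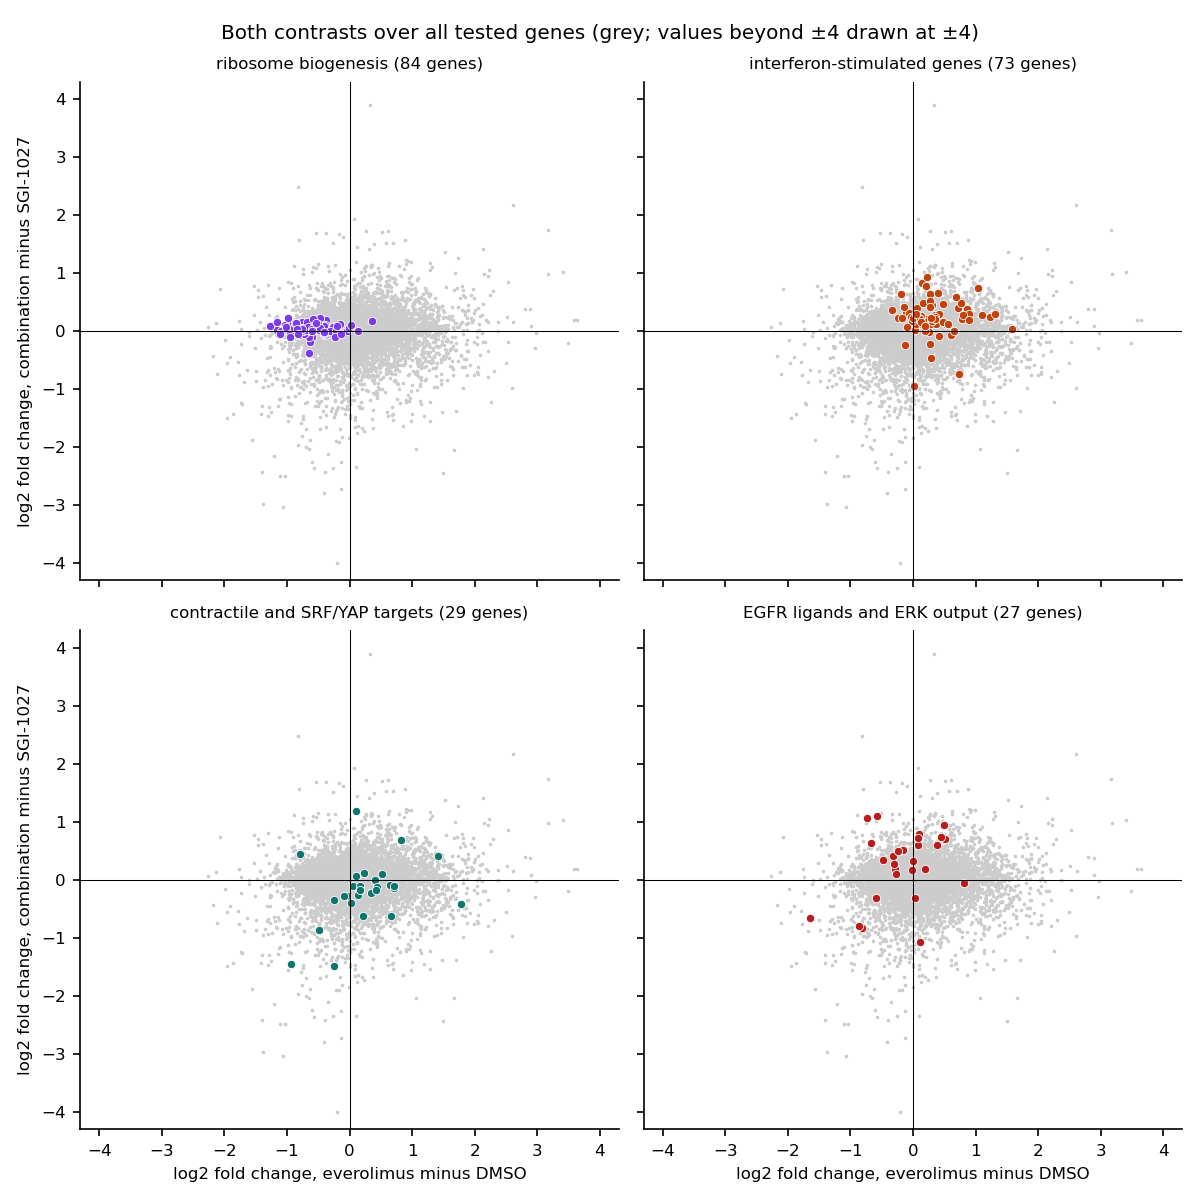
Each grey point is 1 of 12841 tested genes, with its log2 fold change for everolimus minus DMSO on the horizontal axis and for combination minus SGI-1027 on the vertical axis, and each panel colours the members of 1 gene list. Ribosome biogenesis genes spread to the left of 0 and lie near 0 vertically (median -0.63 and 0.03), interferon-stimulated genes lie above and to the right of 0 (0.22 vertically and 0.28 horizontally), contractile and SRF/YAP targets lie mostly below 0 (-0.18) and most EGFR ligands and ERK output genes lie above it (0.33).

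The 10 genes with the highest fold changes among called genes that averaged 50 counts or more and whose groups did not overlap were ANGPTL4, SUN3, EMP1, CD209, MARCHF4, SIGLEC15, HMGA1, ANKRD1, GOLGA7B and MMP1. ANGPTL4, a secreted inhibitor of lipoprotein lipase and a hypoxia-responsive gene, stood at 6.83, 5.82 and 8.39 CPM (counts scaled to the size of each library, with TMM factors) in the SGI-1027 libraries and at 25.1, 26.5 and 28.2 in the combination libraries. All 3 combination values exceeded all 3 SGI-1027 values, as the choice of these 10 genes required. ANGPTL4 rose by a log2 fold change of 1.92 ± 0.12 (SE, n = 3 libraries per group here and below; adjusted p = 3.3e-09). In DMSO it was at 2.38 to 3.09 and with everolimus alone at 2.51 to 3.32 CPM, a range that overlaps that of DMSO. EMP1, an epithelial membrane protein, was at 3.77 to 4.41 CPM with SGI-1027 and at 11.5, 14.3 and 12.1 with the combination (1.62 ± 0.15, adjusted p = 2.6e-07), and did not pass with everolimus alone (log2 fold change -0.10). HMGA1, an architectural chromatin protein, read 93.6, 104 and 153 CPM with SGI-1027 and 270, 319 and 342 with the combination (1.41 ± 0.13, adjusted p = 2.9e-07). The highest SGI-1027 value was that of replicate 3, and without it the fold change was 1.66. SIGLEC15, a sialic acid-binding lectin, showed another pattern, as it rose from 34.4, 36.3 and 47.97 to 99.6, 104 and 112 CPM (1.42 ± 0.09) and had also risen with everolimus alone, from 4.82 to 5.25 up to 21.2 to 23.2. MMP1, an interstitial collagenase, rose in both settings by similar amounts, 1.17 with SGI-1027 and 1.29 without it, and the difference of -0.13 was not called (adjusted p = 0.57). ANKRD1, a nuclear ankyrin-repeat protein and YAP target, rose from 15.4 to 18.0 up to 34.7 to 40.1 CPM (1.18 ± 0.08) and was at 4.83 to 5.92 in all DMSO and everolimus-only libraries. SUN3, CD209, MARCHF4 and GOLGA7B rose by 1.18 to 1.72.

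The 10 lowest were EDN2, U2AF1, GLP2R, SYT16, FILIP1L, PKHD1, AIF1L, ACTA2, ALDH1A1 and FGFR2. EDN2, which encodes the vasoconstrictor endothelin-2, was at 7.41, 8.07 and 5.93 CPM with SGI-1027 and at 0.938, 0.727 and 1.05 with the combination. It fell by 2.98 ± 0.17 on the log2 scale (adjusted p = 2.4e-09). It was at 22.0 to 26.3 in DMSO and fell to 7.81 to 9.92 with everolimus alone, and the fall after everolimus was larger with SGI-1027 present by 1.60 log2 units (adjusted p of the difference = 1e-05). ACTA2, smooth muscle alpha-actin, was at 34.8, 38.6 and 37.7 CPM with SGI-1027 and 15.9, 11.8 and 11.8 with the combination (-1.49 ± 0.09, adjusted p = 3.3e-09), against -0.25 for everolimus alone. ALDH1A1, a retinaldehyde dehydrogenase, was at 42.2, 41.7 and 38.1 and then 17.0, 13.7 and 12.9 (-1.48 ± 0.08). FGFR2, a receptor tyrosine kinase for fibroblast growth factors, was at 9.13, 9.48 and 8.41 and then 3.28, 3.74 and 2.66 (-1.48 ± 0.12), while everolimus alone left it at 8.11 to 9.69 against 7.57 to 8.82 in DMSO. GLP2R, the receptor for glucagon-like peptide 2, FILIP1L, which is related to a filamin-interacting protein, PKHD1, which encodes fibrocystin, SYT16, a synaptotagmin, and AIF1L, an actin-binding protein, fell by 1.59 to 2.04. U2AF1, a splicing factor, is uncertain, because a near-identical copy of the gene can share its reads and its counts varied widely within groups (8.77 to 13.3 with SGI-1027, 1.77 to 3.94 with the combination and 2.93 to 17.2 CPM with everolimus alone).

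**Figure D2:**
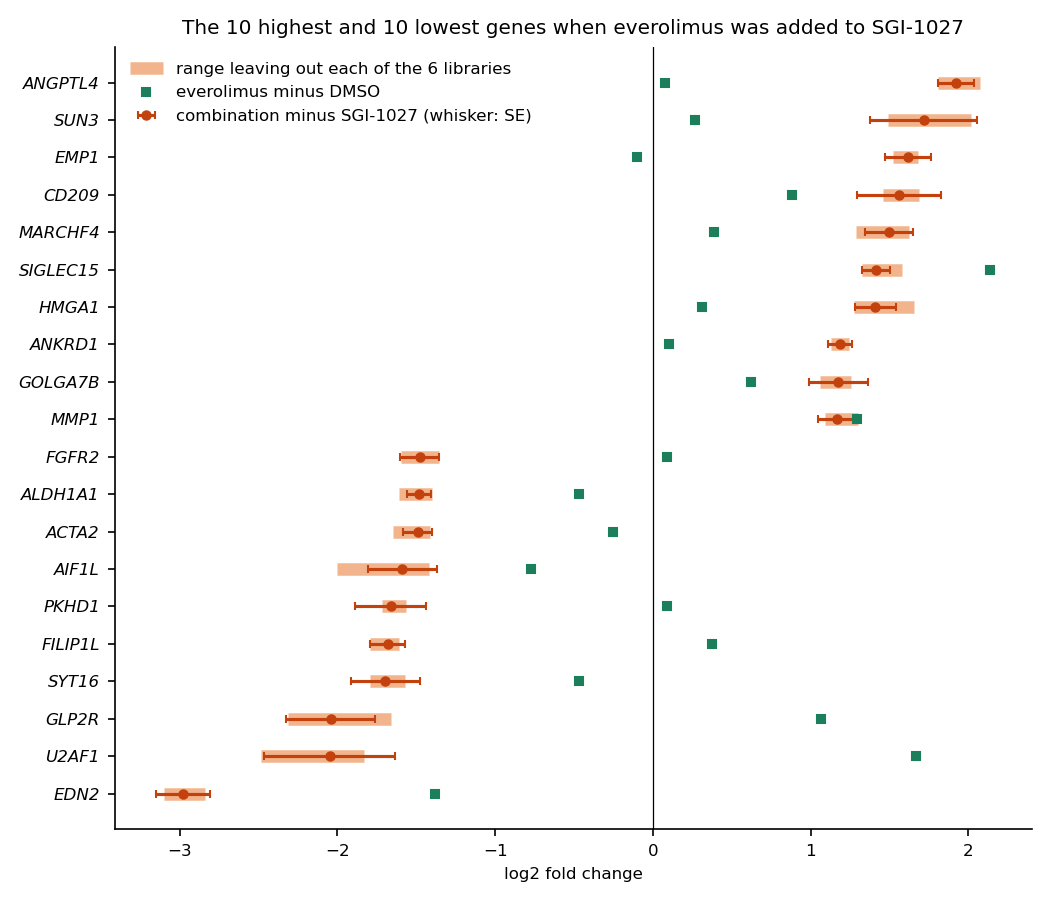
Circles give the log2 fold change of combination minus SGI-1027 with its SE as whiskers for the 10 highest and 10 lowest genes, pale bars the range when each of the 6 libraries is left out in turn, and squares the log2 fold change of everolimus minus DMSO. EDN2 lies lowest at -2.98 and ANGPTL4 highest at 1.92, and for ANGPTL4, EMP1, ANKRD1, PKHD1 and FGFR2 the square lies near 0.

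Of 48 tested members of the mTOR pathway itself, 8 rose and 3 fell (median 0.04; 8 and 1 without SGI-1027 replicate 3), against 9.4% and 10.2% of all tested genes. MTOR stood at 163, 165 and 173 CPM with SGI-1027 and 162, 164 and 169 with the combination, and the ranges overlap. Among those that rose were genes of the amino acid sensing machinery at the lysosomal surface. RRAGC, a Rag GTPase, was at 48.4, 50.1 and 41.9 and then 65.6, 70.3 and 69.1 (0.55 ± 0.07, adjusted p = 2.2e-05), RRAGD rose by 0.50, FLCN, the folliculin that acts on Rag GTPases, was at 46.4 to 46.7 and then 59.4 to 62.8 (0.39 ± 0.05), and its partner FNIP1 rose by 0.34. EIF4EBP1, the translation repressor phosphorylated by mTOR complex 1, rose by 0.33. DDIT4, the stress-induced inhibitor of the complex also known as REDD1, was at 218, 211 and 201 and then 182, 175 and 178 and fell by 0.24 (adjusted p = 0.0011), after a larger fall with everolimus alone (-0.65). RRAGC, RRAGD, FLCN, FNIP1 and MCOLN1 are known targets of the MiT/TFE factors.

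Feedback genes that follow FOXO factors, which are held out of the nucleus by AKT, differed between the 2 settings. Everolimus alone raised 27 of 34 and lowered 1, with a median of 0.53, against 27.2% and 29.2% of all tested genes. With SGI-1027 present 6 rose and 8 fell (median -0.03; 8 and 7 without SGI-1027 replicate 3), against 9.4% and 10.2% of all tested genes. The difference between the effects was called below 0 for 24 of 34 and above 0 for 1, against 22.1% and 23.6% of all tested genes. SGI-1027 alone, against DMSO, raised 28 and lowered 2 (median 0.52), where it raised 4106 and lowered 3934 of all 12841 tested genes. TXNIP, an arrestin that limits glucose uptake, was at 45.3, 47.7 and 49.6 CPM in DMSO, 116, 104 and 112 with everolimus, 82.3, 88.2 and 90.4 with SGI-1027 and 89.9, 85.0 and 80.3 with the combination. The last 2 groups overlap, and both lie between the DMSO and the everolimus-only values. IRS2, the insulin receptor substrate, did not pass the test either (209 to 218 CPM with the combination against 217 to 240). BMF, a pro-apoptotic BCL2 family member, was at 26.8 to 30.9 in DMSO and 101 to 112 with everolimus alone (1.87), but at 91.6, 97.6 and 103 with SGI-1027 and 74.3, 65.3 and 68.0 with the combination, a fall of 0.49 ± 0.06. ARRDC3, an arrestin-domain protein, fell by 0.44 with SGI-1027 and rose by 0.29 without it. TNFSF10, the death ligand TRAIL, fell from 418 to 453 down to 293 to 313 CPM (-0.53 ± 0.04). Members that rose in both settings included KLHL24, at 25.1 to 27.0 and then 33.3 to 34.7 CPM (0.38), FBXO32, a ubiquitin ligase subunit of muscle wasting (0.57), and FOXO1 itself (0.39).

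Lysosomal genes rose as a group. Among 43 hydrolases and their cofactors, 20 rose and 1 fell (median 0.17; 23 and 2 without SGI-1027 replicate 3), and among 39 lysosomal membrane proteins and V-ATPase subunits 18 rose and none fell (median 0.17; 20 and 0 without it), against 9.4% and 10.2% of all tested genes. NEU1, the lysosomal sialidase, was at 105, 101 and 98.5 CPM with SGI-1027 and at 130 in each combination library (0.36 ± 0.04, adjusted p = 8.6e-06). CTSD, the aspartic protease cathepsin D, was at 2122, 2144 and 2360 and then 2656, 2572 and 2738 (0.27 ± 0.04), and CTSB, a cysteine cathepsin, at 527 to 557 and then 582 to 599 (0.14 ± 0.04). For all 3 the groups do not overlap, which held, with the combination higher, for 17.1% of all tested genes. CTNS, the cystine exporter, rose from 13.0 to 15.6 up to 21.9 to 22.8 CPM (0.61 ± 0.07), and NPC1, the cholesterol exporter of late endosomes, from 228 to 232 up to 280 to 288 (0.30 ± 0.04). LAMP1, the major glycoprotein of the lysosomal membrane, was at 299, 305 and 298 and then 346, 349 and 344 (0.20 ± 0.03), whereas LAMP2 did not pass (log2 fold change -0.06, adjusted p = 0.37). Everolimus alone raised 30 hydrolases and lowered 2 (median 0.34), and raised 15 membrane and V-ATPase genes and lowered 6 (median 0.02). Of all tested genes it raised 27.2% and lowered 29.2%. NPC1 was at 194 to 207 CPM in DMSO and 176 to 184 with everolimus alone, and the difference of 0.45 was called (adjusted p = 1.2e-06). MCOLN1, a calcium channel of the lysosome, and ATP6V0B, a proton-pore subunit, likewise rose with SGI-1027 (0.39 and 0.26) and had negative fold changes without it (-0.22 and -0.31). The genes of 3 transcription factors of this programme fell: MITF from 26.3 to 28.5 down to 15.2 to 17.9 CPM (-0.75 ± 0.07), TFE3 fell by 0.16 and TFEB by 0.25, the last 2 calls being lost without SGI-1027 replicate 3 (TFEB -0.19, adjusted p = 0.14). The TFEB call was also lost without SGI-1027 replicate 1, combination replicate 2 or combination replicate 3.

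The binding sequence of MiT/TFE factors, known as the CLEAR element, was looked for as the letters TCACGTG, which contain the E-box CACGTG, on both strands of the 250 bases before the transcript start in RefSeq promoters (GRCh38.p14). It was present in 12 of 54 lysosomal promoters that could be matched, out of 82 genes tested (22.2%), and in 531 of all 10378 promoters of tested genes (5.12%). Of 23 matched lysosomal genes that rose, 7 held it. The windows around the match are shown for the 3 holders with the smallest adjusted p in the expression contrast, with the matching letters in capitals and each read along the strand of its gene. The NEU1 window is chr6:31862912-31862978 (minus strand), that of CTSD chr11:1763938-1764004 (minus strand, match on the opposite strand) and that of LAMP1, the first of several matches in its promoter, chr13:113297016-113297082 (plus strand).
NEU1: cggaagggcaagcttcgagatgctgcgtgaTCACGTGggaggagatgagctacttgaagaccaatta
CTSD: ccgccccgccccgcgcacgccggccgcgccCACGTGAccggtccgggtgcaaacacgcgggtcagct
LAMP1: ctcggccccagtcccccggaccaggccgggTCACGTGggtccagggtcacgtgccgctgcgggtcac
A match describes these letters only and is no evidence of binding.

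Of 43 tested autophagy genes, 6 rose and 5 fell (median 0.02; 5 and 3 without SGI-1027 replicate 3), shares near the 9.4% and 10.2% of all tested genes, whereas everolimus alone raised 23 and lowered 11 (median 0.26), against 27.2% and 29.2% of all tested genes. The count of risers was 3 without combination replicate 1 or 2, and that of fallers 3 without combination replicate 2 and 2 without combination replicate 3. SQSTM1, the cargo receptor p62, rose from 809, 796 and 838 to 1152, 1173 and 1207 CPM (0.53 ± 0.03, adjusted p = 3.4e-09) and had been at 374 to 380 in DMSO and 619 to 636 with everolimus alone. GABARAPL1, an ATG8 homologue and FOXO target, fell from 66.2 to 68.1 down to 49.9 to 53.8 CPM (-0.38), although everolimus alone raised it (1.16).

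Interferon-stimulated genes rose as a group. Of 73 tested, 42 rose and 5 fell (median 0.22; 51 and 3 without SGI-1027 replicate 3), against 9.4% and 10.2% of all tested genes. Everolimus alone raised 47 and lowered 2 (median 0.28), or 38 and 5 (median 0.24) without DMSO replicate 1. Of all tested genes it raised 27.2% and lowered 29.2%. The difference was called above 0 for 16 and below 0 for 21, against 23.6% and 22.1% of all tested genes. The mean level of the list relative to DMSO was 1.37 to 1.53 log2 units in the SGI-1027 libraries, 1.63 to 1.67 in the combination libraries and 0.28 to 0.32 with everolimus alone, and replicate 3 was the highest of the SGI-1027 libraries. ISG15, a ubiquitin-like modifier, was at 186, 183 and 210 CPM with SGI-1027 and 299, 303 and 300 with the combination (0.64 ± 0.05, adjusted p = 8.3e-08). In DMSO it was at 48.7 to 51.0 and with everolimus alone at 55.7 to 64.4. MX2, an antiviral dynamin-like GTPase, was at 46.2, 42.9 and 60.9 and then 73.1, 76.0 and 77.2 (0.59 ± 0.10), and without SGI-1027 replicate 3 its fold change was 0.76. The largest rises of the list were those of IFITM1 (0.93), which blocks viral entry, IFI27 (0.82) and IFI6 (0.77). IFITM1 was at 6.43, 6.12 and 11.5 and then 14.9, 14.5 and 16.3 CPM, and reads of the IFITM copies can be shared. Among those that fell were TRIM5 (-0.24), GBP1 (-0.47), CXCL10 (-0.74) and GBP2 (-0.96), of which TRIM5 and CXCL10 were not called without SGI-1027 replicate 3 (adjusted p = 0.076 and 0.098). GBP1, a guanylate-binding protein that responds to type II interferon, was at 118, 121 and 126 and then 84.2, 91.7 and 86.4 (-0.47 ± 0.04, adjusted p = 2.4e-07), although everolimus alone raised it (0.28). STAT2, a transcription factor of the interferon response, rose from 134 to 157 up to 176 to 183 (0.29).

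The interferon-stimulated response element was searched as GAAA, 2 bases of any kind and GAAA again, on both strands of the same windows. It was present in 29 of 57 matched promoters of the list (50.9%) and in 266 of 10378 overall (2.56%). It was found in 20 of 34 matched genes that rose and in 3 of 3 that fell. The windows are shown for the 3 holders with the smallest adjusted p, of which GBP1 fell. That of ISG15 is chr1:1013360-1013429 (plus strand, 1 of 2 overlapping matches), that of GBP1 chr1:89065296-89065365 (minus strand, match on the opposite strand) and that of ISG20, an exonuclease that rose by 0.74, chr15:88638917-88638986 (plus strand).
ISG15: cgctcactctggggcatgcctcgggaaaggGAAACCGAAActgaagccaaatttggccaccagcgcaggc
GBP1: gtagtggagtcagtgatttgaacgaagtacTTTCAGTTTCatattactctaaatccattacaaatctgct
ISG20: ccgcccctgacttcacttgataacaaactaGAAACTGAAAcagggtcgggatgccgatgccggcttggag

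Of 21 tested antigen presentation genes, 11 rose and none fell (median 0.18; 13 and 0 without SGI-1027 replicate 3), against 9.4% and 10.2% of all tested genes. Everolimus alone raised 14 and lowered 2 (median 0.38), against 27.2% and 29.2% of all tested genes. The difference was called above 0 for 6, among them HLA-F and PSMB9, and below 0 for 11, against 23.6% and 22.1%. HLA-F, a non-classical class I molecule, was at 18.4, 17.4 and 20.0 and then 29.2, 26.6 and 26.8 CPM (0.56 ± 0.07), and PSMB9, an immunoproteasome subunit, at 57.7, 60.2 and 55.0 and then 74.7, 76.0 and 76.9 (0.40 ± 0.05). HLA-B, HLA-C and HLA-E rose by 0.18 to 0.24, B2M, their shared light chain, by 0.25 and the peptide transporter TAP1 by 0.25. Class I genes resemble each other closely, so that reads may be split among them.

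Genes downstream of EGFR and ERK had the highest median of the 26 lists. Of 27 tested, 15 rose and 3 fell (median 0.33; 17 and 3, median 0.51, without SGI-1027 replicate 3), against 9.4% and 10.2% of all tested genes. With everolimus alone 6 rose and 10 fell (median -0.16), against 27.2% and 29.2% of all tested genes. The difference was called above 0 for 14 and below 0 for 2, against 23.6% and 22.1% of all tested genes. Without DMSO replicate 1 these counts were 5 and 8 (median -0.05) and 13 and 1. Under upper-quartile scaling the median for everolimus alone was -0.085. ETV5, an ETS factor induced by ERK, was at 33.4, 34.6 and 39.6 CPM with SGI-1027 and 58.4, 64.7 and 62.5 with the combination (0.78 ± 0.07, adjusted p = 1.9e-07), against 16.5 to 20.2 in all DMSO and everolimus-only libraries. PLAU, the urokinase, was at 183 to 187 and then 262 to 289 (0.59 ± 0.05). Among the others that rose were DUSP6, a phosphatase of ERK, from 8.09 to 9.73 up to 14.1 to 16.2 CPM (0.74), SPRY4 from 3.23 to 5.08 up to 7.14 to 9.91 (1.10) and SPRY2 by 0.73. FOSL1, an AP-1 subunit, was at 192, 192 and 269 and then 310, 350 and 347, and fell with everolimus alone (-0.68). The 3 that fell were 2 EGFR ligands and an immediate early gene: EREG, at 113, 122.9 and 99.1 and then 61.6, 64.2 and 67.7 (-0.79 ± 0.07, adjusted p = 2.8e-07), AREG (-0.84) and EGR1, at 17.4, 18.6 and 28.0 and then 10.4, 10.4 and 9.52 (-1.08). EREG fell by 0.85 with everolimus alone and the difference was not called. In this list SGI-1027 replicate 3 lay at 0.29 log2 units relative to DMSO, next to the 0.34 to 0.43 of the combination libraries, while the other 2 SGI-1027 libraries lay at 0.07 and 0.10.

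**Figure D3:**
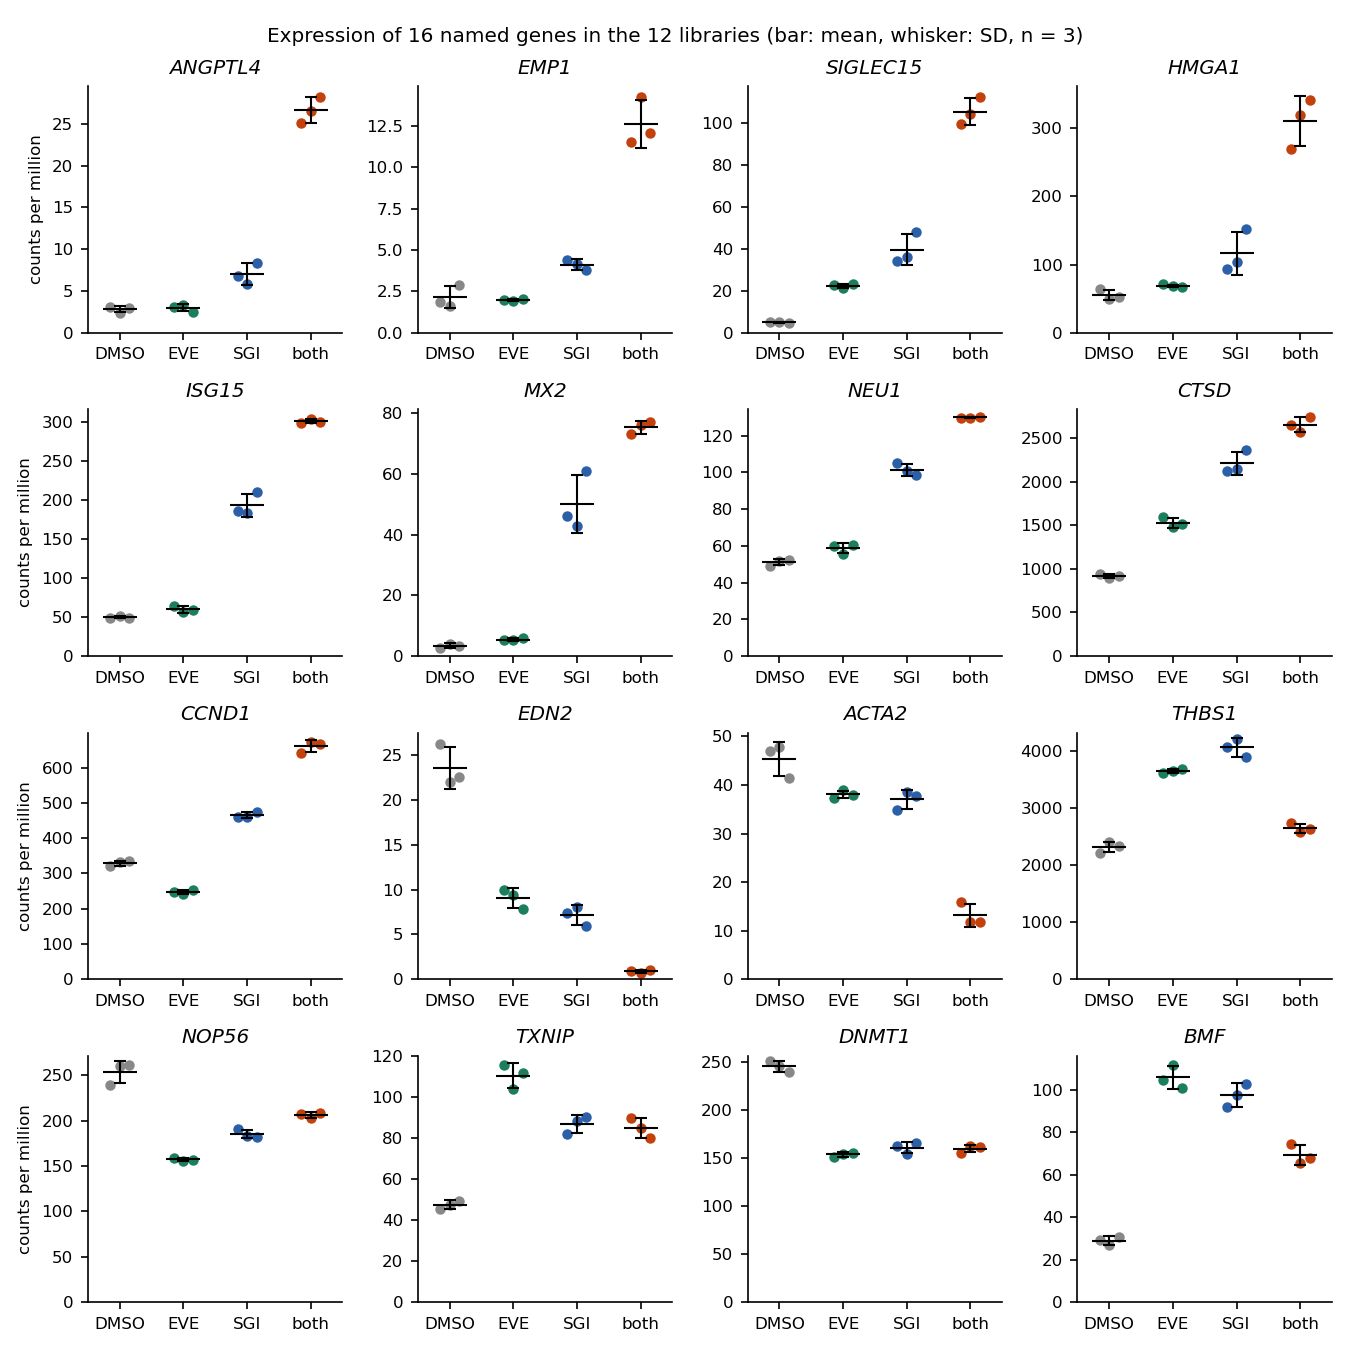
CPM (vertical axis, from 0) of 16 genes in the 12 libraries, 3 points per group, with the mean as a bar and the SD as whiskers (EVE, everolimus; SGI, SGI-1027; both, combination). ANGPTL4, EMP1, HMGA1, ISG15 and MX2 are highest in the combination libraries, EDN2 and ACTA2 are lowest there, and TXNIP and DNMT1 overlap between SGI-1027 and the combination.

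Contractile genes and targets of SRF and YAP fell. Of 29 tested, 17 fell and 5 rose (median -0.18; 16 and 6 without SGI-1027 replicate 3), against 10.2% and 9.4% of all tested genes. Everolimus alone raised 18 and lowered 4 (median 0.17), against 27.2% and 29.2% of all tested genes. The difference was called below 0 for 20 and above 0 for 2, against 22.1% and 23.6%. SGI-1027 alone, against DMSO, raised 16 and lowered 4 (median 0.19), where it raised 4106 and lowered 3934 of all 12841 tested genes. THBS1, the matrix protein thrombospondin-1, was at 2219 to 2406 CPM in DMSO, 3614 to 3691 with everolimus alone, 4086, 4224 and 3902 with SGI-1027 and 2737, 2577 and 2637 with the combination (-0.62 ± 0.04, adjusted p = 3.3e-09). Structural genes of actin filaments fell together with ACTA2: MYL9, a myosin light chain, from 200 to 222 down to 121 to 146 CPM (-0.63), CNN2 by 0.41, ACTB by 0.35, ACTG1 by 0.29 and TPM4 by 0.26, and SRF itself by 0.28. The actin genes are close copies and may share reads. Among those that rose were ANKRD1 (1.18), CCN2 (0.68), F3 (0.44) and AXL (0.12). CCN2, connective tissue growth factor, was at 87.9 to 96.4 and then 143 to 151 CPM.

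The CArG box, the site of SRF, was searched as CCWWWWWWGG, where W is A or T, in the same windows. This pattern is its own reverse complement, so that every match lies on both strands by construction. It was present in 7 of 24 matched promoters of this list (29.2%) and in 111 of 10378 overall (1.07%). It was found in 5 of 15 matched genes that fell and in 0 of 4 that rose. The windows of the 3 holders with the smallest adjusted p are those of TPM4 at chr19:16067335-16067404 (plus strand), CNN2 at chr19:1026489-1026558 (plus strand) and ACTG1 at chr17:81512854-81512923 (minus strand).
TPM4: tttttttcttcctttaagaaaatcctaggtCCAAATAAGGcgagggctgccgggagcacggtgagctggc
CNN2: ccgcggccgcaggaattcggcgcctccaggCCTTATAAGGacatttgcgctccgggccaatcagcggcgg
ACTG1: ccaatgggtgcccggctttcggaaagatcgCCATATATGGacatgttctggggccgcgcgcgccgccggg

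Extracellular matrix genes split. Of 50 tested, 12 rose and 14 fell (median -0.04; 14 and 15 without SGI-1027 replicate 3), against 9.4% and 10.2% of all tested genes. Everolimus alone raised 33 and lowered 3 (median 0.46), against 27.2% and 29.2% of all tested genes. The difference was below 0 for 35 and above 0 for 1, against 22.1% and 23.6%. SGI-1027 alone, against DMSO, raised 36 and lowered 3 (median 0.54), where it raised 4106 and lowered 3934 of all 12841 tested genes. LAMB3, a laminin chain, was at 416, 421 and 399 and then 697, 748 and 782 CPM (0.85 ± 0.04, adjusted p = 2.2e-10), and MMP3, a stromelysin, rose from 0.513 to 0.731 up to 1.61 to 1.90 (1.52). Among those that fell, FN1, fibronectin, was at 39329, 40108 and 43688 and then 33904, 32899 and 33179 (-0.30 ± 0.04), VCAN, a proteoglycan, at 891 to 919 and then 601 to 631 (-0.56 ± 0.04), and COL1A1 at 6.23 to 6.91 and then 3.99 to 4.63 (-0.65). FN1 rose by 0.46 with everolimus alone.

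**Figure D4:**
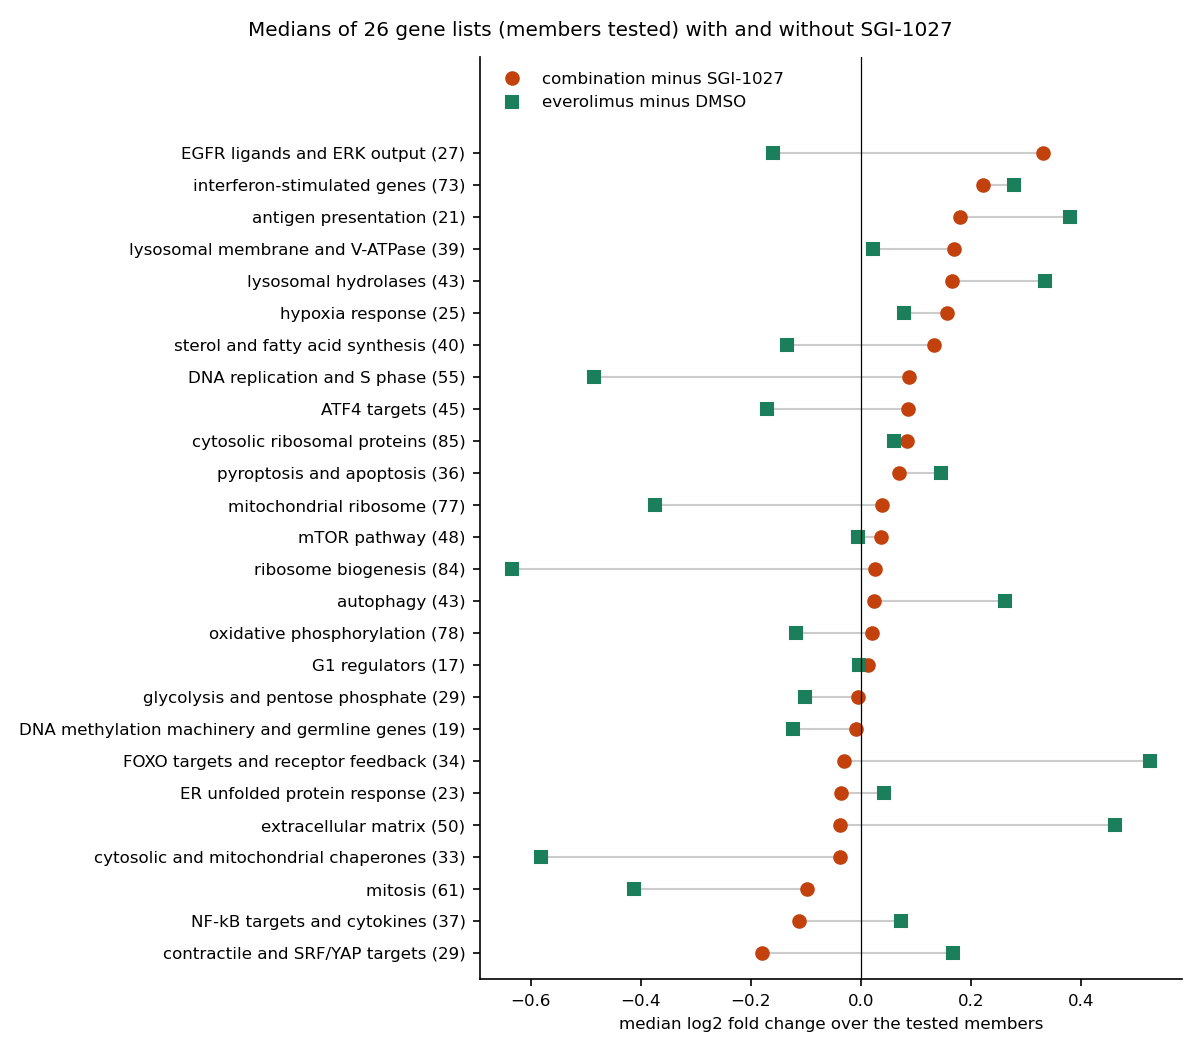
Circles give the median log2 fold change of combination minus SGI-1027 and squares that of everolimus minus DMSO for 26 gene lists, ordered by the circles, with the number of tested members in parentheses. EGFR ligands and ERK output lie highest (0.33) and contractile and SRF/YAP targets lowest (-0.18), and the squares of ribosome biogenesis (-0.63), chaperones (-0.58) and DNA replication (-0.48) lie far to the left of their circles.

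Growth programmes that everolimus alone lowered stayed close to their SGI-1027 level. SGI-1027 alone, against DMSO, lowered 76 of 84 ribosome biogenesis genes and raised 1 (median -0.59). Of all 12841 tested genes it lowered 3934 and raised 4106. For ribosome biogenesis, everolimus alone lowered 75 of 84 genes and raised 1 (median -0.63), while with SGI-1027 present 7 rose and none fell (median 0.03; 7 and 2 without SGI-1027 replicate 3), against 9.4% and 10.2% of all tested genes. The count of risers fell to 4 without SGI-1027 replicate 1 or combination replicate 1 and to 2 without combination replicate 2. The difference was above 0 for 73 of 84, against 23.6% of all tested genes, of which everolimus alone lowered 29.2% and raised 27.2%. NOP56, a core protein of box C/D small nucleolar RNPs, was at 239, 259 and 262 CPM in DMSO, 159, 156 and 157 with everolimus, 191, 183 and 182 with SGI-1027 and 208, 203 and 208 with the combination (0.15 ± 0.04, adjusted p = 0.0088). The E-box CACGTG, the site of MYC, was present in 8 of 69 matched promoters of the list (11.6%) and in 918 of 10378 overall (8.85%), and in 0 of 5 matched genes that rose. The level of the list relative to DMSO was -0.53 to -0.57 log2 units with SGI-1027, -0.50 to -0.53 with the combination and -0.59 to -0.62 with everolimus alone. MYC, a driver of this programme, did not pass with all libraries (153 to 185 against 181 to 191 CPM, adjusted p = 0.065), and did without SGI-1027 replicate 3 (log2 fold change 0.26, adjusted p = 0.00034).

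The mitochondrial ribosome had 61 of 77 genes lowered and none raised by everolimus alone (median -0.37), 6 raised and 2 lowered with SGI-1027 present (median 0.04; 7 and 4 without SGI-1027 replicate 3; 2 raised without combination replicate 2 and 3 without combination replicate 3) and a difference above 0 for 54. The 6 and 2 stand against 9.4% and 10.2% of all tested genes. SGI-1027 alone, against DMSO, lowered 70 of the 77 and raised none (median -0.45). Of all 12841 tested genes it lowered 3934 and raised 4106. Of 78 oxidative phosphorylation genes NDUFAB1, a complex I subunit and acyl carrier protein, was the only one called (19.9 to 22.9 and then 23.2 to 26.1 CPM), against 19.6% of all tested genes called in either direction. Its call was lost without any 1 of 4 of the 6 libraries (SGI-1027 replicates 1 and 3, combination replicates 2 and 3), and 3 others fell without SGI-1027 replicate 3. Everolimus alone lowered 33 of the 78 and raised 4, against 29.2% and 27.2% of all tested genes. With SGI-1027 alone, against DMSO, 52 of the 78 fell and 1 rose. Of 85 cytosolic ribosomal and elongation genes 7 rose and 1 fell (3 and 0 without SGI-1027 replicate 3, and 1, 2 and 3 risers without combination replicates 1, 2 and 3), against 9.4% and 10.2% of all tested genes. EEF1A1, the elongation factor, was at 8132, 8126 and 7581 and then 8713, 8578 and 8853 (0.13 ± 0.04), a call lost without SGI-1027 replicate 3 (adjusted p = 0.066), and RPS6, whose protein is the usual readout of S6 kinase, did not pass (adjusted p = 0.55). Chaperones, of which everolimus alone lowered 28 of 33 and raised none, had 2 that rose and 6 that fell (2 and 5 without SGI-1027 replicate 3). Over all tested genes 9.4% rose and 10.2% fell. SGI-1027 alone, against DMSO, lowered 30 of the 33 chaperones and raised 1 (median -0.67). HSPB1, a small heat shock protein, was at 663, 683 and 827 and then 531, 524 and 502 (-0.48 ± 0.08), with a fold change of -0.37 without SGI-1027 replicate 3, and HSPB8 fell from 35.1 to 35.4 down to 24.6 to 25.97 (-0.48 ± 0.05).

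Of 55 DNA replication genes 8 rose and 4 fell (median 0.09; 8 and 3 without SGI-1027 replicate 3, and 2 fell without SGI-1027 replicate 2 or combination replicate 1 or 2), shares near the 9.4% and 10.2% of all tested genes, although everolimus alone lowered 50 and raised none. SGI-1027 alone, against DMSO, lowered 51 of the 55 and raised none (median -0.47). MCM7, a subunit of the replicative helicase, was at 248, 247 and 240 and then 283, 292 and 306 CPM (0.26 ± 0.04), and MCM2, MCM4 and MCM5 rose by 0.13 to 0.18. E2F8, a repressive E2F factor, was at 14.5 to 14.8 and then 9.77 to 10.4 (-0.55 ± 0.08). Of 61 mitosis genes 22 fell and 3 rose (median -0.10; 23 and 3 without SGI-1027 replicate 3, and 14 fell without combination replicate 3), against 10.2% and 9.4% of all tested genes. Everolimus alone lowered 52 and raised 1, and SGI-1027 alone, against DMSO, lowered 60 and raised none (median -0.81). Over all 12841 tested genes everolimus alone lowered 29.2% and raised 27.2%, and SGI-1027 alone lowered 3934 and raised 4106. KIF20A, a kinesin of cytokinesis, was at 115, 124 and 120 and then 88.6, 85.4 and 86.3 (-0.46 ± 0.04, adjusted p = 8e-08), after 275 to 280 in DMSO, and NUSAP1, a spindle protein, at 121 to 125 and then 94.1 to 101 (-0.31 ± 0.04). Of 17 G1 regulators 2 rose and 2 fell (2 and 3 without SGI-1027 replicate 3), shares near the 9.4% and 10.2% of all tested genes. CCND1, cyclin D1, was at 461, 461 and 475 and then 642, 673 and 668 (0.51 ± 0.04, adjusted p = 1.3e-08), in contrast to a fall with everolimus alone from 321 to 335 down to 241 to 254 CPM, and the difference was 0.92 (adjusted p = 2.7e-10). CDK4, its kinase partner, rose by 0.26, and CDKN2C, the CDK inhibitor p18, fell from 42.2 to 44.6 down to 31.0 to 35.3 (-0.42 ± 0.05).

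**Figure D5:**
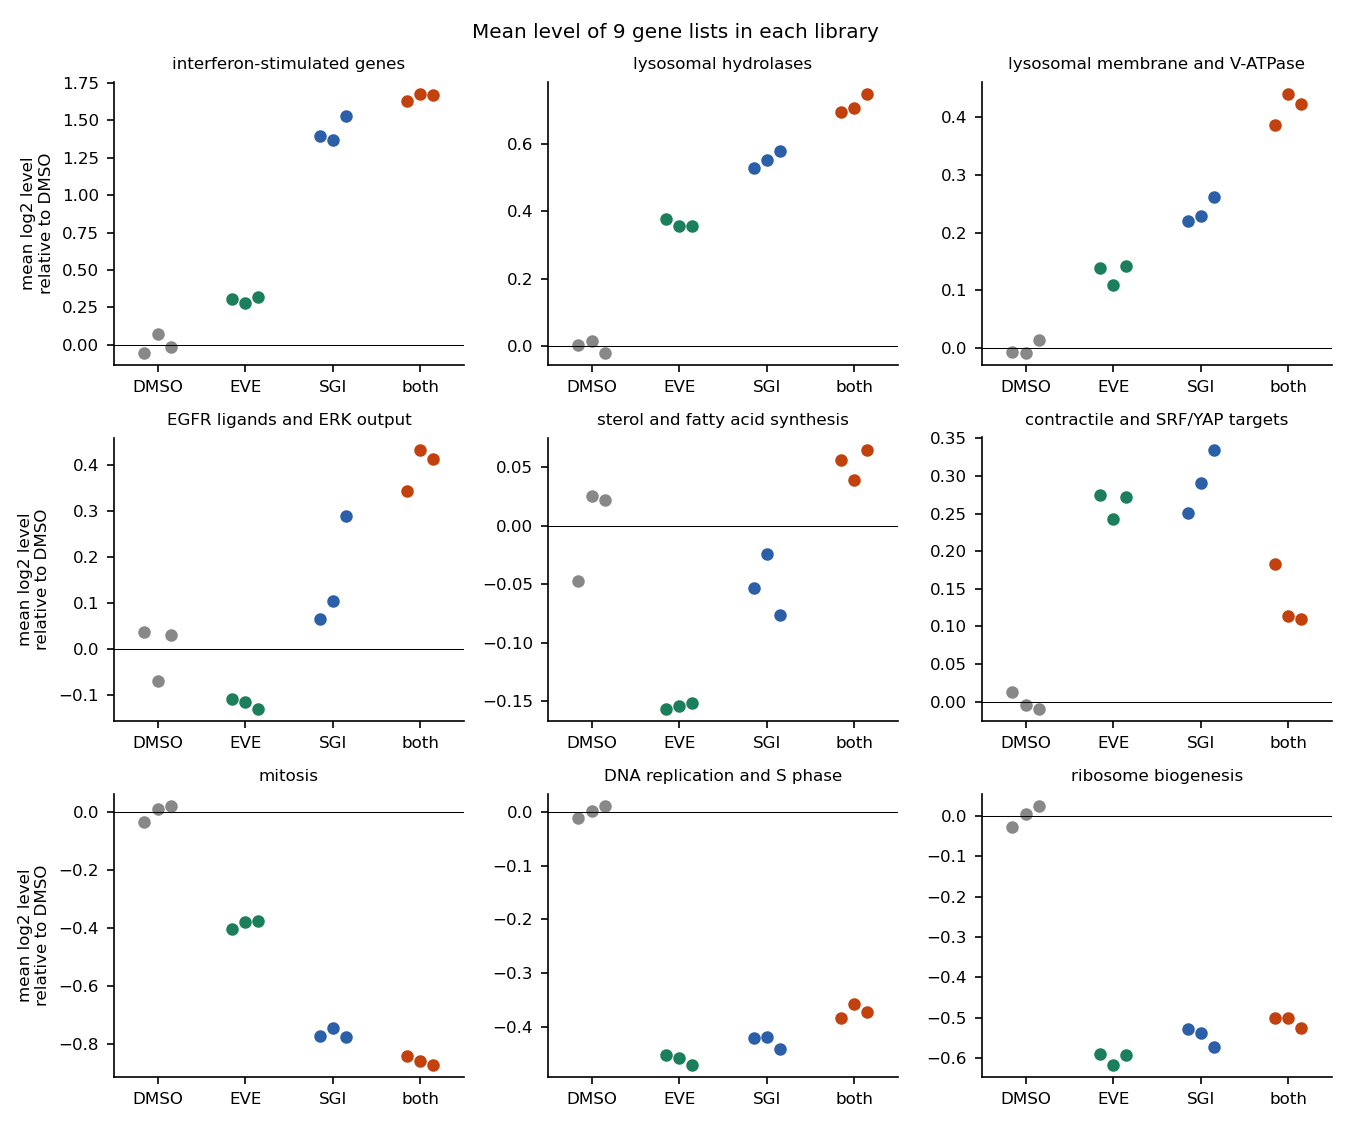
Mean log2 level of 9 gene lists relative to the DMSO mean (vertical axis, scale differs by panel) in each library, 3 points per group (EVE, everolimus; SGI, SGI-1027; both, combination). Interferon-stimulated and lysosomal genes are highest in the combination libraries, mitosis genes lowest there, and ribosome biogenesis genes are below 0 in all treated libraries.

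Metabolic genes rose in part. Of 40 sterol and fatty acid synthesis genes 11 rose and 2 fell (median 0.13; 14 and 1 without SGI-1027 replicate 3), against 9.4% and 10.2% of all tested genes. Everolimus alone raised 2 and lowered 20, against 27.2% and 29.2% of all tested genes. The difference was above 0 for 26 and below 0 for 1, against 23.6% and 22.1%. INSIG1, the sterol sensor that retains SREBP in the endoplasmic reticulum, was at 50.6, 58.1 and 57.9 and then 78.9, 82.7 and 80.5 CPM (0.54 ± 0.06, adjusted p = 4.5e-06). FASN, fatty acid synthase, was at 437 to 456 in DMSO, 344 to 365 with everolimus alone, 414, 427 and 439 with SGI-1027 and 511, 509 and 551 with the combination (0.30 ± 0.04). SREBF1, the gene of the SREBP-1 factor itself, fell by 0.27, and HMGCS1, of the sterol branch, did not pass (adjusted p = 0.13). Of 25 hypoxia-response genes 11 rose and 3 fell (median 0.16; 13 and 2 without SGI-1027 replicate 3), against 9.4% and 10.2% of all tested genes. P4HA2, a collagen prolyl hydroxylase, was at 298, 302 and 280 and then 460, 469 and 486 (0.68 ± 0.04), with a rise of 0.61 under everolimus alone, and EGLN3, an oxygen-sensing prolyl hydroxylase, fell by 0.69. Of 29 glycolysis and pentose phosphate genes 3 rose and 7 fell, as also without SGI-1027 replicate 3 (median -0.01 under the main scaling, and 0.002 with DESeq2 size factors), and 4 fell without SGI-1027 replicate 1 or any 1 combination library. Over all tested genes 9.4% rose and 10.2% fell. ENO2, an enolase, was at 61.5, 60.0 and 59.0 and then 91.1, 94.6 and 95.2 (0.64 ± 0.05), and SLC2A3, a glucose transporter, at 32.7 to 34.3 and then 42.2 to 44.2 (0.35 ± 0.05), whereas LDHA, PGK1 and PKM fell by 0.12 to 0.17 and SLC2A1 did not pass (adjusted p = 0.23).

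Targets of ATF4, the factor of the integrated stress response, rose in 16 of 45 and fell in 4 (median 0.09; 14 and 4 without SGI-1027 replicate 3), against 9.4% and 10.2% of all tested genes. Everolimus alone raised 7 and lowered 27, against 27.2% and 29.2% of all tested genes. ASNS, asparagine synthetase, was at 72.9, 70.4 and 62.5 and then 89.7, 100.3 and 97.6 CPM (0.48 ± 0.06), and WARS1, a tRNA synthetase that interferon also induces, at 352 to 375 and then 468 to 513 (0.45 ± 0.04). Of the endoplasmic reticulum stress genes 5 of 23 rose and 3 fell (5 and 4 without SGI-1027 replicate 3; 3 rose without combination replicate 2), against 9.4% and 10.2% of all tested genes. PPP1R15A, the phosphatase subunit GADD34, was at 54.6, 56.1 and 62.6 and then 89.5, 94.1 and 87.4 (0.65 ± 0.06, adjusted p = 1.7e-07), and PDIA4, a protein disulfide isomerase, at 496 to 508 and then 428 to 454 (-0.19 ± 0.03). HSPA5, the chaperone BiP, was at 826 to 859 and then 780 to 812 and did not pass (adjusted p = 0.065; 0.036 without SGI-1027 replicate 3).

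Of 37 NF-kB targets and cytokines 15 fell and 6 rose (median -0.11; 12 and 6 without SGI-1027 replicate 3), against 10.2% and 9.4% of all tested genes. Everolimus alone raised 12 and lowered 8, against 27.2% and 29.2% of all tested genes. The difference from everolimus alone was below 0 for 18 and above 0 for 6, against 22.1% and 23.6%. VCAM1, a leukocyte adhesion molecule, was at 346 to 406 CPM in DMSO, 571 to 585 with everolimus alone, 672, 653 and 666 with SGI-1027 and 452, 434 and 447 with the combination (-0.58 ± 0.05, adjusted p = 4.8e-08). BCL3, an IkB family member, fell from 37.4 to 47.7 down to 19.1 to 22.8 (-1.04), and TNFAIP6, a hyaluronan-binding protein, by 1.44. CSF2, the cytokine GM-CSF, was at 44.9, 45.1 and 49.8 and then 76.4, 73.0 and 68.3 (0.64 ± 0.05), IL6 at 103, 95.8 and 119 and then 130, 140 and 126 (0.32 ± 0.07), and TNFAIP3, the ubiquitin-editing inhibitor of NF-kB, at 86.4 to 99.0 and then 131 to 139 (0.53).

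Of 36 tested genes of pyroptosis and apoptosis, 8 rose and 4 fell (median 0.07; 7 and 4 without SGI-1027 replicate 3), against 9.4% and 10.2% of all tested genes, and 2 fell without SGI-1027 replicate 2 or combination replicate 2. NLRP3, the inflammasome sensor, was at 4.36, 4.96 and 4.80 and then 7.11, 9.56 and 10.1 CPM (0.93 ± 0.13, adjusted p = 6.6e-05), with 3.47 to 4.35 under everolimus alone against 3.87 to 4.59 in DMSO, and the difference was 1.04 (adjusted p = 0.00033). GSDME, the gasdermin that caspase-3 cleaves, was at 64.1, 66.5 and 64.1 and then 80.1, 83.0 and 80.7 (0.32 ± 0.05), and also rose with everolimus alone (0.48). CASP1, the inflammatory caspase, was at 4.23 to 4.55 and then 5.24 to 5.81 and did not pass (adjusted p = 0.06; 0.046 by DESeq2). Its groups do not overlap, as for 17.1% of all tested genes with the combination higher. IL18 rose by 0.33 and BAX by 0.21, the last call being lost without SGI-1027 replicate 3, while BCL2 fell by 0.46.

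For the DNA methylation machinery, DNMT1, the maintenance methyltransferase, was at 163, 154 and 166 CPM with SGI-1027 and 156, 162 and 162 with the combination (log2 fold change -0.01, adjusted p = 0.90), after 239 to 251 in DMSO and 151 to 156 with everolimus alone. Of 19 tested genes UHRF2, a reader of hemimethylated DNA (0.22 ± 0.05), rose, and TET2, a methylcytosine dioxygenase (-0.21 ± 0.06), and MBD3 (-0.17) fell, the same counts as without SGI-1027 replicate 3, against 19.6% of all tested genes called in either direction. Without SGI-1027 replicate 2 or combination replicate 3, 1 fell. The list held 31 genes, of which these 19 were in the file and passed the filter.

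At the ends of the difference between the effects of everolimus lay genes that moved strongly in only one of the settings or in opposite directions. APLN, the peptide hormone apelin, was at 12.9, 9.69 and 9.87 CPM in DMSO and 2.32, 2.25 and 2.82 with everolimus alone (log2 fold change -2.13), and at 4.06, 4.31 and 4.28 with SGI-1027 and 4.35, 5.17 and 4.36 with the combination. Its SGI-1027 and combination values did not overlap but did not pass the test (adjusted p = 0.55), and the difference was 2.27. SH2D5, an adaptor with an SH2 domain, was at 10.5 to 11.6 in DMSO and 5.20 to 6.23 with everolimus alone, but rose from 8.72, 8.89 and 9.31 with SGI-1027 to 15.8, 15.6 and 17.0 with the combination (0.84). EPPK1, the cytolinker epiplakin, went the other way, from 0.576 to 0.912 in DMSO up to 1.92 to 2.71 with everolimus alone and from 2.72, 2.65 and 2.74 down to 1.04, 0.903 and 1.16 CPM with the combination (-1.39). YPEL1, a member of the Yippee family, was at 0.628 to 0.671 in DMSO and 4.68 to 5.40 with everolimus alone (2.98), and at 3.30 to 3.55 with SGI-1027 and 3.06 to 3.96 with the combination, where the groups overlap. PIK3IP1, an inhibitor of PI3 kinase, had a difference of -2.50 and RTL9, a retrotransposon-derived gene, one of 1.94, and neither passed with SGI-1027 present (adjusted p = 0.12 and 0.66). ASMTL-2 is uncertain, as the name marks a copy of a pseudoautosomal gene that can share reads; its groups overlapped (log2 fold change 2.48 ± 0.83, adjusted p = 0.043), and the call was lost without any 1 of several libraries.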

How the data were processed

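RNA sequencing libraries of 786-O cells, 3 in each of 4 groups, were used as deposited. The authors counted reads per gene symbol and deposited raw counts and FPKM values. The aligner and counter are not given in the sources used here. The submitters' processing notes name the mouse build GRCm38 (mm10), although the symbols are human. Libraries were grouped by their labels.

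Counts of all 12 libraries were fitted together with edgeR 4.0.16 in R 4.3.3 (filterByExpr, TMM, quasi-likelihood test, Benjamini-Hochberg adjustment over all tested genes, threshold 0.05). DESeq2 1.42.0 and limma 3.58.1 (on log2(FPKM + 1) and log2(FPKM + 0.1)), other scalings and filters, a replicate block and leaving out each library were alternatives. On simulated counts edgeR recovered 100 of 100 genes changed by 1 log2 unit and 88 of 100 changed by 0.5 between the combination and SGI-1027, with 12 false calls among 12763 genes. The changed genes averaged at least 50 counts and were balanced in direction, and all other groups shared 1 set of means. These rates therefore do not cover genes of low counts, changes in as many genes as were called here, or libraries that stand apart.

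The genes named were the 10 highest and 10 lowest that averaged 50 counts or more without overlap of the groups, the 2 called members with the smallest p in each list, genes of known role and 5 at each end of the difference. Other members were named after their values were seen. The libraries compared and the 26 lists were chosen with earlier results of these data known. Promoters came from RefSeq (GRCh38.p14). Some genes that met the rule are not reported here.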

Additional observations from a re-analysis of the deposited data

Results flagged for a closer look

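The effect of everolimus differed with and without SGI-1027 for the genes below, as the difference itself passed the test (edgeR quasi-likelihood test, adjusted p under 0.05, n = 3 libraries per group). Values are differences of log2 fold changes, with minus without SGI-1027. For the everolimus-only group the labels give 2 doses, of which the methods of the study name 5 µM, and if 10 µM was used, dose and the presence of SGI-1027 cannot be told apart.

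The difference was at least 1 for ASMTL-2 (3.30), APLN (2.27), RTL9 (1.94), ANGPTL4 (1.84), SH2D5 (1.82), EMP1 (1.72), SUN3 (1.45), MARCHF4 (1.11), HMGA1 (1.10), ANKRD1 (1.08) and NLRP3 (1.04). It was between 0 and 1 for CCND1 (0.92), NOP56 (0.84), IMP3 (0.69), ETV5 (0.69), DNMT1 (0.66), NDUFAB1 (0.64), FASN (0.64), HSPA5 (0.62), MRPS25 (0.59), CSF2 (0.57), INSIG1 (0.51), MCM7 (0.47), NPC1 (0.45), DDIT4 (0.42), CTNS (0.42), ENO2 (0.38), ISG15 (0.37), SLC2A3 (0.32), WARS1 (0.31), PSMB9 (0.29), HLA-F (0.28), PPP1R15A (0.27), FLCN (0.24), PLAU (0.20), RACK1 (0.18) and NEU1 (0.16).

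It was at most -1 for U2AF1 (-3.72), GLP2R (-3.11), EPPK1 (-3.10), YPEL1 (-3.01), PIK3IP1 (-2.50), BMF (-2.36), FILIP1L (-2.06), PKHD1 (-1.75), EDN2 (-1.60), FGFR2 (-1.57), THBS1 (-1.27), TXNIP (-1.25), ACTA2 (-1.24), SYT16 (-1.22), VCAM1 (-1.18), MITF (-1.03) and ALDH1A1 (-1.02). It was between -1 and 0 for AIF1L (-0.82), GBP1 (-0.76), FN1 (-0.76), ARRDC3 (-0.74), IL6 (-0.73), SIGLEC15 (-0.72), VCAN (-0.62), HSPB8 (-0.59), TNFSF10 (-0.51), CTSD (-0.47), TET2 (-0.42), CDKN2C (-0.27), CTSB (-0.26), EEF1A1 (-0.26), IRS2 (-0.24), SQSTM1 (-0.19), LAMP2 (-0.19) and PDIA4 (-0.17). U2AF1 and ASMTL-2 have near-identical copies and are uncertain. Under upper-quartile scaling the differences of SUN3, FLCN, NEU1, RACK1, HLA-F, PPP1R15A and PLAU were no longer called. NEU1 and SUN3 were also lost with the replicate block, NEU1 and HLA-F with at least 10 counts in every library, and SIGLEC15, SYT16, AIF1L and ASMTL-2 by limma on log2(FPKM + 1). Leaving out 1 library ended the call of SUN3, AIF1L, NEU1, HLA-F, ASMTL-2, LAMP2 or PLAU in at least 1 case each.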

How the results depend on the processing

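No called gene named by the rule reversed its direction in the combination against SGI-1027, whereas MTOR, DNMT1, RTL9, YPEL1 and TXNIP, none of them called, changed sign under some alternative. The median of the glycolysis list changed sign (-0.006 against 0.002 with DESeq2 or RLE scaling). The side with more calls changed for the combination against SGI-1027 (1394 higher and 1299 lower with DESeq2, 1304 and 1221 with RLE scaling, 1464 and 1042 by limma on log2(FPKM + 1)), for everolimus alone (4480 and 2901 under upper-quartile scaling) and for the difference (2335 and 3578 there). The counts at an adjusted p under 0.05 stayed within 1.5 times. The counts by the study's cut-off moved with the filter and with limma on FPKM, which changes tool, scaling and unit together: for the combination against SGI-1027 they were 109 higher and 252 lower without a filter, 25 and 75 with at least 10 counts in every library, 6 and 9 by limma on log2(FPKM + 1) and 26 and 49 on log2(FPKM + 0.1). For everolimus against DMSO they were 297 and 71, 48 and 24, and 209 and 58 in the last 3 of these. Larger pseudocounts shrink the fold changes of low genes by construction, and the filter removes them. Leaving out each library in turn gave 875 to 1390 genes higher and 945 to 1450 lower for the combination against SGI-1027, 47 to 72 and 148 to 190 by the cut-off, 2742 to 3179 and 2563 to 2865 for the difference, and 3120 to 3706 and 3398 to 3934 (459 to 533 and 103 to 127 by the cut-off) for everolimus against DMSO. Of the genes named by the rule, NDUFAB1, TFEB, ASMTL-2, EEF1A1 and IMP3 lost their call without at least 1 library, and MYC, HSPA5 and HMGCS1 gained one. The difference could not be had from a fit of 2 groups.

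Replicate numbers are shared between groups, but same-numbered libraries did not deviate together (correlations of 0.024 to 0.036 between SGI-1027 and combination, -0.054 to 0.035 between DMSO and everolimus). With the replicate block 1085 genes were higher and 1166 lower, and 2910 and 2721 for the difference. NDUFAB1, TFEB and ASMTL-2 were then not called.

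At 37046231 counts or more per library, depth limits mainly genes of low counts, such as SUN3 and CD209.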
